A study of Mus musculus with 16 samples.

Results

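Glucose uptake, glycolysis and glycogen metabolism were described in the mouse heart through 36 genes, chosen by symbol from textbook knowledge of these pathways, out of 22098 genes listed in at least 1 deposited table. All 36 were found in each of the 4 tables. The study crossed 2 factors: TAC (transverse aortic constriction, a band on the aorta that loads the left ventricle with pressure) against SHAM surgery, and NR (the usual short form of nicotinamide riboside, a kind of vitamin B3 from which cells make NAD+) against vehicle. Total RNA from whole heart tissue was sequenced in 16 libraries: 5 of NR TAC hearts, 4 of Vehicle TAC hearts, 4 of NR SHAM hearts and 3 of Vehicle SHAM hearts. Strain, sex, age, dose and time after surgery were not given in the labels. It is not stated that the libraries of a group came from separate animals, so a p-value here covers the scatter of libraries, which could be technical.

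The heart takes up glucose through GLUT4 (Slc2a4), which insulin and contraction move to the cell surface, and through the insulin-independent GLUT1 (Slc2a1). Hexokinases trap it as glucose 6-phosphate, which enters glycolysis, where phosphofructokinase is the main control point, or is stored as glycogen. The adult heart burns mainly fatty acids, and a greater reliance on glucose has long been described in the pressure-loaded heart, which is the reason to look at these genes after TAC.

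No member passed the authors' test in any comparison. A gene was called where the adjusted p of the authors' deposited table (DESeq, Benjamini-Hochberg adjustment over all genes of the table) was below 0.05. For NR TAC over NR SHAM 0 of 36 members were called, against a background of 0.549% of all genes (115 of 20946). For Vehicle TAC over Vehicle SHAM 0 of 36 were called, against 0.0487% (10 of 20540). For NR TAC over Vehicle TAC and for NR SHAM over Vehicle SHAM the authors' DESeq tests called 0 members and 0% of all genes. At an unadjusted p below 0.05 the count of members was 7 for TAC in NR hearts (19.4%, against 6.98% of all genes), 4 for TAC in vehicle hearts (11.1%, against 4.89%), 2 for NR in TAC hearts (5.56%, against 2.61%) and 2 for NR in SHAM hearts (5.56%, against 1.88%). Of the better-measured genes, those averaging at least 50 normalized counts (35 of the 36 members), 9.69%, 6.08%, 3.02% and 1.91% passed that threshold in the same order. A member that misses the threshold is not shown to be equal between groups: the approximate standard error of a member's log2 fold change had a median of 0.148 for TAC in NR hearts and 0.172 for TAC in vehicle hearts.

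The members' log2 fold changes ran from -0.92 to 1.19 for TAC in NR hearts and from -0.98 to 2.34 for TAC in vehicle hearts. They were centred near 0. Their median was -0.11 for NR TAC over NR SHAM, with 13 positive and 23 negative (36.1% positive, against 53.2% of all genes), and 0.03 for Vehicle TAC over Vehicle SHAM, with 19 positive and 17 negative (52.8% positive, against 51.9%). It was -0.07 for NR TAC over Vehicle TAC, with 13 positive (36.1%, against 49.7%), and -0.01 for NR SHAM over Vehicle SHAM, with 17 positive (47.2%, against 50.2%). Over all genes the medians of the same 4 comparisons were 0.02, 0.01, 0.00 and 0.00. The members together held 1.06% of all normalized counts in NR TAC hearts, 1.15% in Vehicle TAC hearts, 1.06% in NR SHAM hearts and 1.09% in Vehicle SHAM hearts. The larger differences between groups lay in single isoforms.

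**Figure D1:**
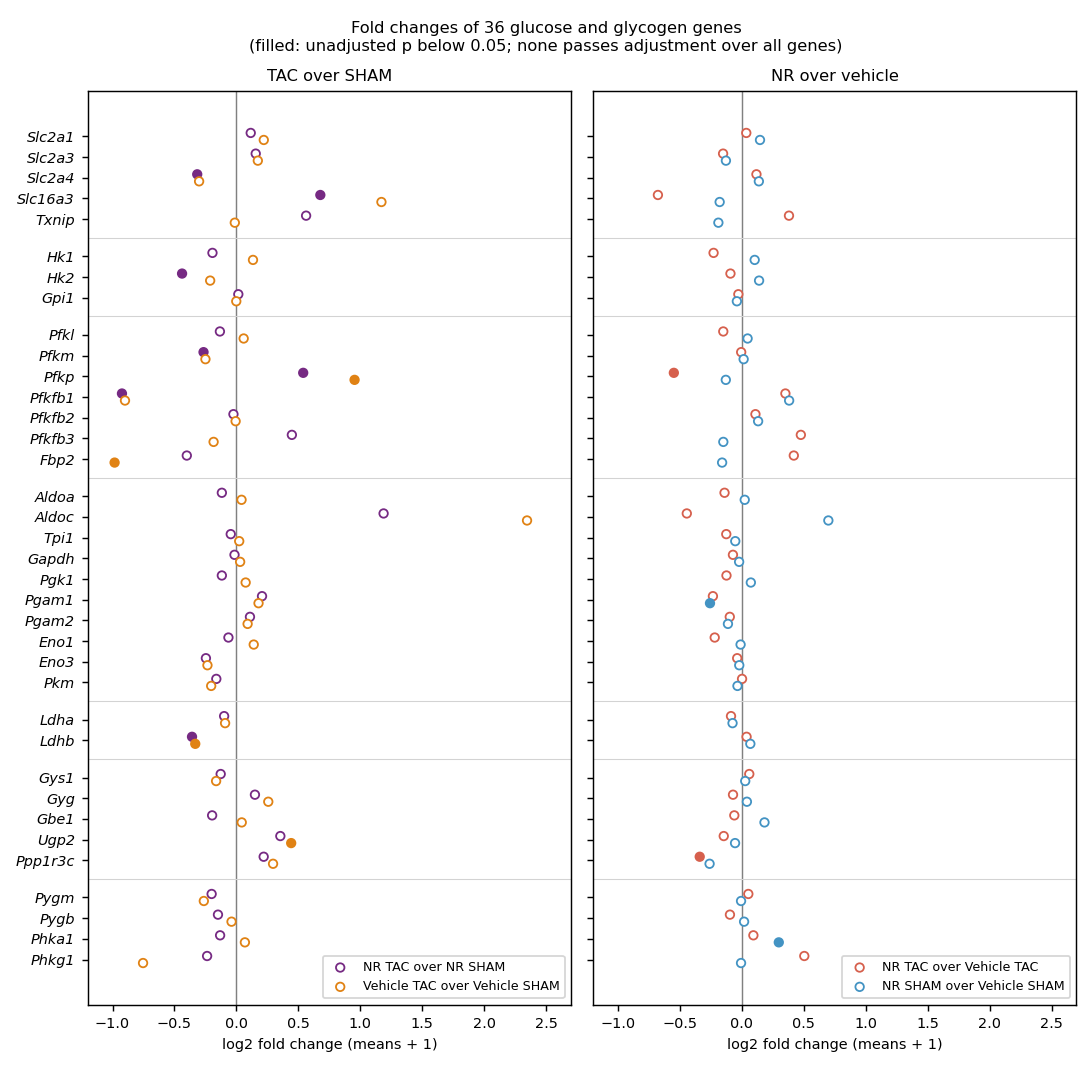
Log2 fold change of each of the 36 genes (x axis, from the authors' group means plus 1) by gene (y axis, grouped by step from uptake at the top to glycogen breakdown at the bottom), with TAC over SHAM in the left panel and NR over vehicle in the right panel. Filled points had an unadjusted p below 0.05: 7 for TAC in NR hearts, 4 for TAC in vehicle hearts and 2 for NR in each of TAC and SHAM hearts.

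Markers of the heart, of its stress response and of other tissues showed groups that stand apart. Acta1, the skeletal actin re-expressed under load, rose in the authors' deposited tables by a log2 fold change of 2.60 for TAC in NR hearts (DESeq adjusted p 6.2e-05) and 3.30 for TAC in vehicle hearts (DESeq adjusted p 0.0264). Of 8 cardiomyocyte markers 7 had negative values in each TAC comparison, with median log2 fold changes of -0.24 in NR hearts and -0.29 in vehicle hearts and 0 called, a size near that of Slc2a4, Pfkm and Ldhb, and their part in those results was not tested. The summed cardiomyocyte level was 2075160 in NR TAC hearts against 2417160 in NR SHAM hearts, and 2166470 in Vehicle TAC hearts against 2462130 in Vehicle SHAM hearts. Of 8 fibroblast markers the median was 0.44 for TAC in NR hearts and 0.62 for TAC in vehicle hearts. With the 4 groups put on a common scale, liver genes stood apart in Vehicle TAC hearts: Alb (albumin) averaged 10.5 in NR TAC, 24938 in Vehicle TAC, 116 in NR SHAM and 25.1 in Vehicle SHAM hearts, and 18 of 18 hepatocyte markers were positive for TAC in vehicle hearts (median 7.79, 0 called). For TAC in NR hearts 5 of the 18 were positive and 13 negative (median -1.42, 0 called). The summed hepatocyte level was 2269 in NR TAC hearts against 1037 in NR SHAM hearts, and 49472 in Vehicle TAC hearts against 1216 in Vehicle SHAM hearts in the authors' deposited tables, with Fgb and Ambp at 0 in NR TAC hearts. The higher sum in NR TAC hearts includes Ahsg, at 963 against 252 in NR SHAM hearts, and Cyp2e1, at 596 against 253. The part of liver RNA in the members' values was not tested, and the group mean does not show how many of the 4 Vehicle TAC libraries carry them. Atrial markers stood apart in NR TAC hearts: Bmp10, made in the atria, averaged 6796 in NR TAC, 66.0 in Vehicle TAC, 4.41 in NR SHAM and 1033 in Vehicle SHAM hearts on the common scale. Of 5 atrial markers 5 were positive for TAC in NR hearts (median log2 fold change 3.35, 0 called) and 4 for TAC in vehicle hearts (median 0.35, 0 called), and the median was 2.03 for NR in TAC hearts and -0.93 for NR in SHAM hearts. Their summed level in the authors' deposited tables was 70698 in NR TAC hearts against 6668 in NR SHAM hearts, and 59237 in Vehicle TAC hearts against 13395 in Vehicle SHAM hearts, with none at 0. However, 1 of the 5, Nppa, is also a stress gene of the ventricle and made up most of the Vehicle TAC sum. On the common scale Nppa averaged 49249 in Vehicle TAC against 4661 in Vehicle SHAM hearts, and 28556 in NR TAC against 3093 in NR SHAM hearts. Myl4 averaged 5681 in Vehicle TAC against 4345 in Vehicle SHAM hearts, and 23163 in NR TAC against 2280 in NR SHAM hearts. Of 7 adipocyte markers the median was 1.01 for TAC in NR hearts, -1.86 for TAC in vehicle hearts, 1.01 for NR in TAC hearts and -2.34 for NR in SHAM hearts. The part of atrial and fat tissue in the members' values was not tested either.

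Levels between genes were compared as normalized counts per kilobase of the longest coding transcript, on the common scale. In Vehicle SHAM hearts the highest level was that of Aldoa (aldolase A, which splits fructose bisphosphate) at 42334, followed by Ldhb, the heart-type lactate dehydrogenase, at 39242. Eno3 (muscle enolase) had 26078, Pgam2 (muscle phosphoglycerate mutase) 21142 and Gapdh 19012 normalized counts per kilobase. The lowest levels were those of Aldoc, the brain-type aldolase, at 0.80, of Slc2a3 (GLUT3) at 17.5 and of Slc16a3, the lactate exporter MCT4, at 17.9. The muscle or heart isozyme led its brain, liver or general counterpart at the phosphofructokinase, aldolase, phosphoglycerate mutase, enolase, lactate dehydrogenase and phosphorylase steps, in each of the 4 groups.

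**Figure D2:**
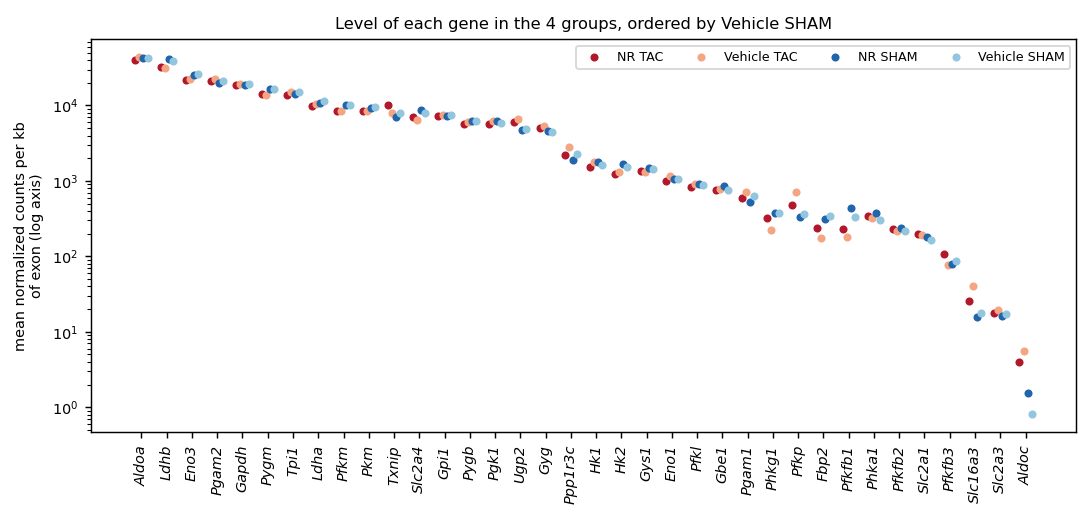
Level of each gene (y axis, mean normalized counts per kilobase of exon, log axis) by gene (x axis, ordered by Vehicle SHAM), with 1 point per group. The 4 points of most genes lie close together over a range from 0.80 to 42334 in Vehicle SHAM hearts, and those of Pfkp, Fbp2, Pfkfb1, Slc16a3 and Aldoc are spread out.

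Phosphofructokinase converts fructose 6-phosphate to fructose 1,6-bisphosphate and exists as muscle (Pfkm), liver (Pfkl) and platelet (Pfkp) isozymes from separate genes. Since the results turn on telling these 3 transcripts apart, the 60 bases of coding sequence where they are most alike are shown from GENCODE M21 (GRCm38), with capitals marking bases that differ from Pfkm. The stretches lie at chr13:6620933-6620992 on the minus strand in exon 5 for Pfkp, at chr10:78000723-78000782 on the minus strand in exon 5 for Pfkl, and at chr15:98121256-98121315 on the plus strand in exon 6 for Pfkm.
Pfkp: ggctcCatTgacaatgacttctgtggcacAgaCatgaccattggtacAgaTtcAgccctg
Pfkl: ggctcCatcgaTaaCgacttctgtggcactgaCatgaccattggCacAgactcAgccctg
Pfkm: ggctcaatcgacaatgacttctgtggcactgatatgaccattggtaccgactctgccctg
Even here Pfkp and Pfkl each differ from Pfkm at 7 bases, and over the aligned coding sequences Pfkp was identical to Pfkm at 67.1% and Pfkl at 69.4% of bases. No stretch of 50 bases of Pfkm or Pfkp was found in another phosphofructokinase gene. Of the 50-base stretches of Pfkp 17.1% were shared with Pitrm1, a mitochondrial protease gene that overlaps it, and whether the counting used strand was not given in the sources used here.

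Pfkp had the smallest p of any member. On the common scale it averaged 2017 normalized counts in NR TAC hearts, 2949 in Vehicle TAC hearts, 1393 in NR SHAM hearts and 1523 in Vehicle SHAM hearts, so both TAC means lay above both SHAM means. In the authors' deposited table the log2 fold change of NR TAC over NR SHAM was 0.54, with an approximate SE of 0.15, a DESeq p of 0.000346 and an adjusted p of 0.058. For Vehicle TAC over Vehicle SHAM the authors' deposited table gave 0.95, with an approximate SE of 0.41, a DESeq p of 0.0187 and an adjusted p of 0.888. The larger fold change thus came with the larger error. The Vehicle TAC means also carry the liver genes, and the part of liver RNA in the Pfkp values was not tested. Between the treatments the authors' deposited table gave 2052 in NR TAC hearts and 3000 in Vehicle TAC hearts, with a log2 fold change of -0.55 (DESeq p 0.0481, adjusted p 1). In SHAM hearts the NR over vehicle value of the authors' deposited table was -0.13. The overlapping Pitrm1 had log2 fold changes of -0.11 for TAC in NR hearts and -0.23 for TAC in vehicle hearts in the authors' deposited table. The part of reads shared with Pitrm1 in the Pfkp values was not tested.

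Pfkm, which holds most of the heart's phosphofructokinase transcripts, lay the other way. It averaged 24460 normalized counts in NR TAC hearts and 24538 in Vehicle TAC hearts, against 29496 in NR SHAM hearts and 29185 in Vehicle SHAM hearts on the common scale. The authors' deposited table gave a log2 fold change of -0.27 for TAC in NR hearts (DESeq p 0.0422, adjusted p 0.679) and of -0.25 for TAC in vehicle hearts (DESeq p 0.126, adjusted p 1). Pfkl, the liver isozyme, stood at -0.13 after TAC in NR hearts and 0.06 after TAC in vehicle hearts in the authors' deposited table. Per kilobase, the share of Pfkp among the 3 isozymes was 4.96% in NR TAC hearts against 2.92% in NR SHAM hearts, and 7.01% in Vehicle TAC hearts against 3.23% in Vehicle SHAM hearts. Pfkm remained at 83.9% to 89.1% of the 3 in all 4 groups. Both shares are descriptions from group means, with no test.

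The 4 regulators of this step make or remove fructose 2,6-bisphosphate, the strongest activator of phosphofructokinase, or reverse its reaction. Pfkfb1, the bifunctional enzyme first known from liver and muscle, averaged 432 normalized counts in NR TAC hearts and 338 in Vehicle TAC hearts, against 823 in NR SHAM hearts and 631 in Vehicle SHAM hearts on the common scale. The authors' deposited table gave log2 fold changes of -0.92 for TAC in NR hearts (approximate SE 0.35, DESeq p 0.00899, adjusted p 0.36) and -0.90 for TAC in vehicle hearts (approximate SE 0.56, DESeq p 0.111, adjusted p 1). The 2 estimates were close to each other and both TAC means lay below both SHAM means. Pfkfb2, the heart isozyme, stood close to 0, at -0.02 for TAC in NR hearts and -0.01 for TAC in vehicle hearts in the authors' deposited table. Pfkfb3, the inducible isozyme, stood at 0.45 for TAC in NR hearts (DESeq p 0.214) and -0.18 for TAC in vehicle hearts (DESeq p 0.373) in the authors' deposited table. The share of Pfkfb1 among the 3 per kilobase was 40.5% in NR TAC hearts against 58.3% in NR SHAM hearts, and 38.3% in Vehicle TAC hearts against 52.7% in Vehicle SHAM hearts.

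Fbp2, the muscle fructose-1,6-bisphosphatase that runs the phosphofructokinase step backwards, had the smallest p of any member for TAC in vehicle hearts. It averaged 318 normalized counts in NR TAC hearts, 237 in Vehicle TAC hearts, 421 in NR SHAM hearts and 470 in Vehicle SHAM hearts on the common scale. The authors' deposited table gave a log2 fold change of -0.98 for TAC in vehicle hearts (approximate SE 0.37, DESeq p 0.00749, adjusted p 0.714). For TAC in NR hearts the authors' deposited table gave -0.40 (approximate SE 0.24, DESeq p 0.0907, adjusted p 0.849), and for NR in TAC hearts 0.42 (DESeq p 0.259). The Vehicle TAC mean was the lowest of the 4 for Fbp2 and the highest of the 4 for Pfkp. The difference of the 2 TAC effects of Fbp2 was 0.58 on the log2 scale, NR minus vehicle, and did not pass (approximate z, p 0.183, adjusted p 1).

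**Figure D3:**
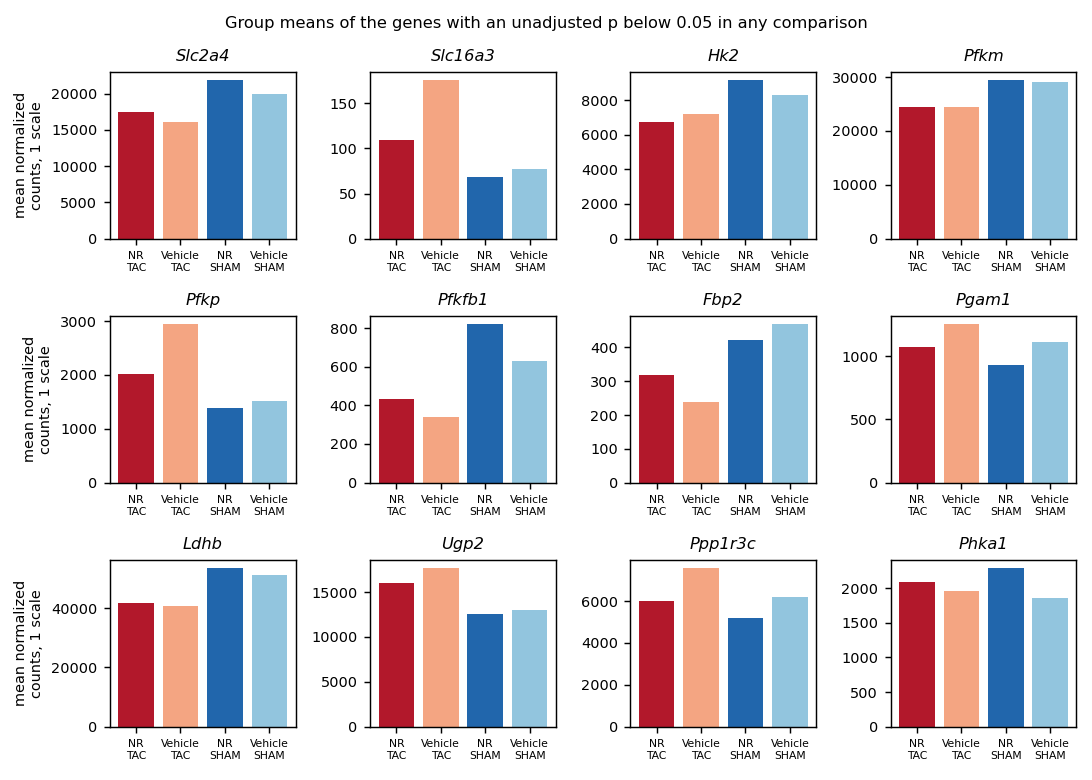
Group means of the 12 genes with an unadjusted p below 0.05 in any comparison (y axes, mean normalized counts on a common scale, each from 0), for NR TAC, Vehicle TAC, NR SHAM and Vehicle SHAM hearts (x axes). Slc16a3, Pfkp and Ugp2 have both TAC bars above both SHAM bars, while Slc2a4, Hk2, Pfkm, Pfkfb1, Fbp2 and Ldhb have both TAC bars below both SHAM bars. The bars are the authors' means, with no spread between libraries.

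Among the transporters, Slc2a4 averaged 17527 normalized counts in NR TAC hearts and 16145 in Vehicle TAC hearts, against 21894 in NR SHAM hearts and 19895 in Vehicle SHAM hearts on the common scale. The authors' deposited table gave log2 fold changes of -0.32 for TAC in NR hearts (approximate SE 0.13, DESeq p 0.0181, adjusted p 0.491) and -0.30 for TAC in vehicle hearts (approximate SE 0.17, DESeq p 0.0793, adjusted p 1). Slc2a1 stood on the other side of 0, at 0.12 for TAC in NR hearts (DESeq p 0.408) and 0.22 for TAC in vehicle hearts (DESeq p 0.27) in the authors' deposited table. Its share among the 3 glucose transporters per kilobase was 2.73% in NR TAC hearts against 2.04% in NR SHAM hearts, and 2.89% in Vehicle TAC hearts against 2.03% in Vehicle SHAM hearts. GLUT4 transcripts thus made up over 95% of the 3 in each group.

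Slc16a3 carries lactate out of glycolytic cells and was among the least abundant members. It averaged 110 normalized counts in NR TAC hearts and 176 in Vehicle TAC hearts, against 68.5 in NR SHAM hearts and 77.7 in Vehicle SHAM hearts on the common scale. The authors' deposited table gave log2 fold changes of 0.68 for TAC in NR hearts (approximate SE 0.30, DESeq p 0.0253, adjusted p 0.564) and 1.17 for TAC in vehicle hearts (approximate SE 0.79, DESeq p 0.137, adjusted p 1). As with Pfkp, the vehicle estimate was the larger and the less certain of the pair. Macrophages, which are known to express this exporter, had 9 of 9 markers at positive values for TAC in NR hearts (median log2 fold change 0.49) and 8 of 9 for TAC in vehicle hearts (median 0.62), and their part in the result was not tested. The summed level of these markers in the authors' deposited tables was 15473 in NR TAC hearts against 9451 in NR SHAM hearts, and 15300 in Vehicle TAC hearts against 10591 in Vehicle SHAM hearts, with no marker at 0. In bulk tissue, more cells of a type and more RNA per cell cannot be told apart.

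Txnip, which draws glucose transporters away from the cell surface and is itself induced by glucose, averaged 28925 normalized counts in NR TAC hearts, 22211 in Vehicle TAC hearts, 19670 in NR SHAM hearts and 22416 in Vehicle SHAM hearts on the common scale. Its log2 fold change in the authors' deposited table was 0.56 for TAC in NR hearts (approximate SE 0.36, DESeq p 0.116) and -0.01 for TAC in vehicle hearts. For NR in TAC hearts the authors' deposited table gave 0.38 (approximate SE 0.24, DESeq p 0.109). The NR TAC mean of Txnip was the highest of the 4, and the difference was not called. NR TAC hearts also had the highest mean for the atrial markers Bmp10, Myl4, Myl7 and Sln. For Nppa, on the same list of atrial markers, they averaged 28556, against 49249 in Vehicle TAC hearts. The part of atrial tissue in the Txnip values was not tested.

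At the hexokinase step, Hk2, the insulin-responsive muscle isozyme, had the second smallest p of the members for TAC in NR hearts. It averaged 6742 normalized counts in NR TAC hearts and 7182 in Vehicle TAC hearts, against 9166 in NR SHAM hearts and 8319 in Vehicle SHAM hearts on the common scale. The authors' deposited table gave -0.44 for TAC in NR hearts (approximate SE 0.14, DESeq p 0.00218, adjusted p 0.177) and -0.21 for TAC in vehicle hearts (approximate SE 0.16, DESeq p 0.195, adjusted p 1). Hk1, the general isozyme, stood at -0.19 in NR hearts (DESeq p 0.148) and 0.13 in vehicle hearts (DESeq p 0.407) in the authors' deposited table. The share of Hk1 in the pair per kilobase was 55.6% in NR TAC hearts against 51.4% in NR SHAM hearts, and 58.0% in Vehicle TAC hearts against 52.0% in Vehicle SHAM hearts. With coding length in place of exon length Hk2 leads the pair in NR TAC, NR SHAM and Vehicle SHAM hearts, and with all annotated exons in all 4 groups, so which hexokinase was the more abundant depends on the length used. Gpi1, the isomerase of the next step, lay between -0.04 and 0.01 in the 4 comparisons of the authors' deposited tables.

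The promoters of the 3 members with a DESeq p below 0.01 in a TAC comparison and a single listed start are shown because these genes lay on opposite sides, Pfkp above and Hk2 and Fbp2 below their SHAM means. Each window runs from 250 bases before to 50 after the start, from RefSeq (GRCm38.p6), at chr13:6648722-6649021 on the minus strand for Pfkp, chr6:82774405-82774704 on the minus strand for Hk2 and chr13:62858351-62858650 on the minus strand for Fbp2. Capitals mark matches, on either strand, to the motifs described after them.
Pfkp promoter: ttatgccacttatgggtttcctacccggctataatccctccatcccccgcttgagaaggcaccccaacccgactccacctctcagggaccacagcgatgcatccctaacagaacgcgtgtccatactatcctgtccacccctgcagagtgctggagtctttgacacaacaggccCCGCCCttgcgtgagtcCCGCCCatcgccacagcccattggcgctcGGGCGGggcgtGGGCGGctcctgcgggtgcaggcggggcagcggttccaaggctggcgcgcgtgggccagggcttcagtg
Hk2 promoter: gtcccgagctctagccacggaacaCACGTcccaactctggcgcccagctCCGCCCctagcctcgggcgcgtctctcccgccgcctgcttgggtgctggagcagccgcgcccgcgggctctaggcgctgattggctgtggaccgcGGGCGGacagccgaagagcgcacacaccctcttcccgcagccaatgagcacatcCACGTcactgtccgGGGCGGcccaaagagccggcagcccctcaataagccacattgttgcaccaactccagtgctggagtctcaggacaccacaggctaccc
Fbp2 promoter: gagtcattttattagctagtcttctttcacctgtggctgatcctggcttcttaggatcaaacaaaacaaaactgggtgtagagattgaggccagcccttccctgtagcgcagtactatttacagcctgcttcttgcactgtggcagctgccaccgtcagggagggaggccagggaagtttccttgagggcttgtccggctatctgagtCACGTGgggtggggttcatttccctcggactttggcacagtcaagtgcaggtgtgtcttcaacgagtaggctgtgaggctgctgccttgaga
The motifs searched were CACGTG (the E-box read by MYC with MAX and by the glucose sensor ChREBP), ACGTG (the core of the hypoxia response element, also contained in CACGTG) and GGGCGG (the GC box of SP1). Pfkp had 4 GC boxes and no other match. Hk2 had 3 GC boxes and 2 ACGTG matches, and Fbp2 had 1 E-box, whose letters also hold ACGTG on each strand. Of all 32851 promoter windows 7.15% held CACGTG, 19.6% ACGTG and 35.7% GGGCGG.

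Of the 36 members 34 had a listed promoter, and some have several starts, so shares were also counted by gene. CACGTG was found at 7 of 34 members (20.6%), against 8.09% of all 27025 genes: Fbp2, Gyg, Ldha, Pfkfb2, Pfkfb3, Pfkm and Ppp1r3c. ACGTG was found at 20 members (58.8%, against 21.8% of all genes) and GGGCGG at 23 (67.6%, against 38.2%). The shares are descriptions of these windows, with no test. The background of all genes was not matched to the members for expression in the heart or for GC content, so the gap between the shares is not shown to be particular to these pathways. Members with and without a match were found on both sides of 0 after TAC.

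The 10 genes of lower glycolysis run from aldolase to pyruvate kinase, and 3 had positive log2 fold changes for TAC in NR hearts and 8 for TAC in vehicle hearts. Leaving out the scarce Aldoc, their log2 fold changes in the authors' deposited tables ran from -0.25 (Eno3) to 0.21 (Pgam1) for TAC in NR hearts and from -0.23 (Eno3) to 0.18 (Pgam1) for TAC in vehicle hearts. Gapdh, often used as a reference gene, lay at -0.02 for TAC in NR hearts (DESeq p 0.912). For TAC in vehicle hearts Gapdh lay at 0.03 (DESeq p 0.837). Its 95% limits by the approximate error were -0.29 to 0.26 in NR hearts and -0.25 to 0.31 in vehicle hearts. Approximate errors drawn from p-values this high are unreliable, so these limits do not show that Gapdh was unchanged. Of the 50-base stretches of Gapdh 82.5% occur in other annotated genes, as do 72.2% of those of Eno1, 68.0% of those of Pgk1 and 41.5% of those of Pgam1. The share was 34.4% for Pkm, 13.5% for Aldoa and 7.51% for Tpi1. The counts of these genes depend on how reads with several matches were treated. This also holds for members of other steps, such as Gpi1 (25.3%), Pfkfb2 (25.1%), Txnip (18.4%) and Ldha (16.6%). Pgam2 and Eno3 share no such stretch.

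In this step Eno1, the general enolase, stood at -0.06 for TAC in NR hearts and 0.14 for TAC in vehicle hearts in the authors' deposited table, while the muscle form Eno3 stood at -0.25 in NR hearts (DESeq p 0.109) and -0.23 in vehicle hearts (DESeq p 0.15). The share of Eno1 in the pair per kilobase was 4.43% in NR TAC hearts against 3.92% in NR SHAM hearts, and 4.99% in Vehicle TAC hearts against 3.90% in Vehicle SHAM hearts. Pkm, whose splice forms these counts do not separate, stood at -0.16 in NR hearts and -0.20 in vehicle hearts in the authors' deposited table. Aldoc, listed at means of 10.6 in NR TAC hearts against 4.10 in NR SHAM hearts and of 15.4 in Vehicle TAC hearts against 2.24 in Vehicle SHAM hearts in the authors' deposited table, had a DESeq p of 0.221 in NR hearts and 0.106 in vehicle hearts. Pgam1 was 1 of the 2 members with an unadjusted p below 0.05 for NR in SHAM hearts, with means of 856 in NR SHAM and 1023 in Vehicle SHAM hearts in the authors' deposited table (log2 fold change -0.26, DESeq p 0.0489, adjusted p 1).

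Ldhb, whose product favours turning lactate into pyruvate, was the only member with an unadjusted p below 0.05 and a negative log2 fold change in both TAC comparisons. It averaged 41752 normalized counts in NR TAC hearts and 40641 in Vehicle TAC hearts, against 53692 in NR SHAM hearts and 51172 in Vehicle SHAM hearts on the common scale. The authors' deposited table gave -0.36 for TAC in NR hearts (approximate SE 0.15, DESeq p 0.0158, adjusted p 0.466) and -0.33 for TAC in vehicle hearts (approximate SE 0.17, DESeq p 0.0444, adjusted p 1). Ldha, whose product favours making lactate, stood at -0.10 in NR hearts and -0.09 in vehicle hearts in the authors' deposited table. The share of Ldha in the pair per kilobase was 23.8% in NR TAC hearts against 20.7% in NR SHAM hearts, and 25.4% in Vehicle TAC hearts against 22.4% in Vehicle SHAM hearts. A predicted gene, Gm5514, holds 27.0% of the 50-base stretches of Ldhb and was listed at means of 52.7 to 73.0 in the 2 TAC tables of the authors. The part of shared reads in the Ldhb values was not tested.

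**Figure D4:**
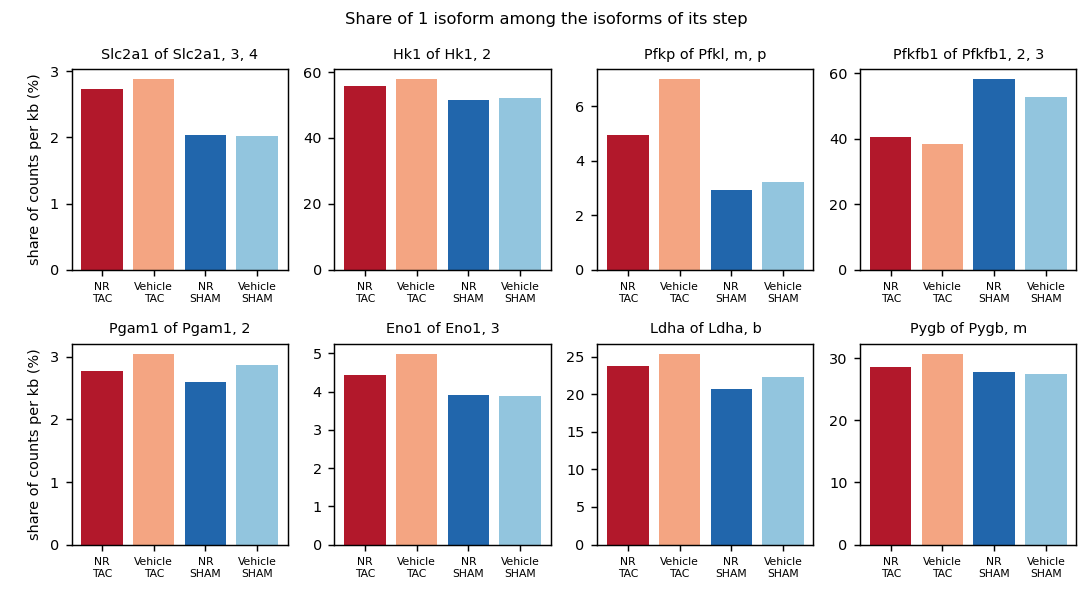
Share of 1 isoform among the isoforms of its step (y axes, percent of normalized counts per kilobase of exon, each from 0) in NR TAC, Vehicle TAC, NR SHAM and Vehicle SHAM hearts (x axes). The Pfkp share is 4.96% and 7.01% in the NR and Vehicle TAC hearts against 2.92% and 3.23% in the NR and Vehicle SHAM hearts, and the Pfkfb1 share is 40.5% and 38.3% against 58.3% and 52.7%.

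Of the 5 genes of glycogen synthesis, 3 had positive log2 fold changes for TAC in NR hearts and 4 for TAC in vehicle hearts, and 0 were called. Ugp2, which makes the UDP-glucose that glycogen is built from, averaged 16012 normalized counts in NR TAC hearts and 17710 in Vehicle TAC hearts, against 12565 in NR SHAM hearts and 13040 in Vehicle SHAM hearts on the common scale. The authors' deposited table gave 0.35 for TAC in NR hearts (approximate SE 0.28, DESeq p 0.205, adjusted p 0.964) and 0.44 for TAC in vehicle hearts (approximate SE 0.22, DESeq p 0.0424, adjusted p 1). Gyg (glycogenin, which primes the glycogen particle) stood at 0.15 in NR hearts and 0.26 in vehicle hearts in the authors' deposited table. Gys1, the muscle glycogen synthase, stood at -0.13 in NR hearts and -0.16 in vehicle hearts, and Gbe1, the branching enzyme, at -0.20 in NR hearts and 0.04 in vehicle hearts, in the authors' deposited table.

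Ppp1r3c brings protein phosphatase 1 to glycogen, where it activates glycogen synthase. It averaged 5999 normalized counts in NR TAC hearts, 7588 in Vehicle TAC hearts, 5167 in NR SHAM hearts and 6183 in Vehicle SHAM hearts on the common scale. For NR over vehicle the authors' deposited tables gave log2 fold changes of -0.34 in TAC hearts (approximate SE 0.17, DESeq p 0.0421, adjusted p 1) and -0.26 in SHAM hearts (approximate SE 0.23, DESeq p 0.255, adjusted p 1). For TAC over SHAM the authors' deposited tables gave 0.22 in NR hearts (DESeq p 0.321) and 0.30 in vehicle hearts (DESeq p 0.0794). The NR mean was thus the lower after either surgery, and the TAC mean the higher under either treatment.

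Of the genes of glycogen breakdown, Pygm, the muscle phosphorylase, stood at -0.20 for TAC in NR hearts (DESeq p 0.123) and -0.26 for TAC in vehicle hearts (DESeq p 0.11) in the authors' deposited table. Pygb, the brain phosphorylase, which the heart also makes, stood at -0.15 in NR hearts and -0.04 in vehicle hearts in the authors' deposited table, and its share in the pair per kilobase was 28.5% in NR TAC hearts against 27.8% in NR SHAM hearts, and 30.7% in Vehicle TAC hearts against 27.5% in Vehicle SHAM hearts. Phosphorylase kinase activates phosphorylase. Its muscle alpha subunit, Phka1, had the smallest p of any member for NR in SHAM hearts, with means of 2117 in NR SHAM and 1720 in Vehicle SHAM hearts in the authors' deposited table (log2 fold change 0.30, DESeq p 0.044, adjusted p 1), and stood at 0.09 for NR in TAC hearts. Its catalytic gamma subunit, Phkg1, stood at -0.24 for TAC in NR hearts (DESeq p 0.614) and -0.75 for TAC in vehicle hearts (DESeq p 0.127) in the authors' deposited table. Sumf2, a gene that overlaps Phkg1, shares 25% of its 50-base stretches.

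The TAC effects under the 2 treatments come from separate libraries and could be set against each other. The log2 fold changes had the same sign in NR and vehicle hearts for 24 of 36 members (66.7%), 10 positive and 14 negative, against 66.1% of all 19772 genes in both tables and 71.5% of the 12459 with a mean of at least 50. Across the 36 members Pearson's r was 0.853 and Spearman's rho 0.784, and without Aldoc 0.784 and 0.765 over 35. Over all 19772 genes r was 0.0775 and rho 0.369, and over the 12459 with a mean of at least 50 they were 0.546 and 0.619. These are descriptions across genes, which are not independent replicates. A test of the difference between the 2 effects (an approximate z, with Benjamini-Hochberg adjustment over 18774 genes) called 0 members and 0% of all genes, and at an unadjusted p below 0.05 it held 0 members and 0.842% of all genes. The smallest p of any member was that of Hk1, at 0.118, where the effect was -0.19 in NR hearts and 0.13 in vehicle hearts, followed by Pfkfb3 at 0.128 (adjusted p 1 for each). For Pfkp the difference was -0.41 with an SE of 0.43 (p 0.338), so these data do not show that NR altered the TAC effect on any member, nor that it left it the same.

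**Figure D5:**
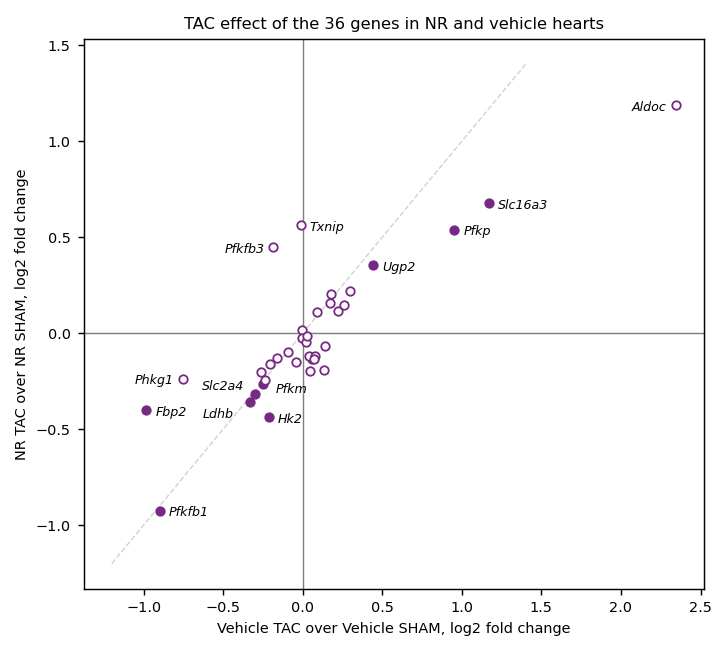
Log2 fold change of NR TAC over NR SHAM (y axis) against that of Vehicle TAC over Vehicle SHAM (x axis), with 1 point per gene; the dashed line marks equal effects and filled points had an unadjusted p below 0.05 in at least 1 of the 2 comparisons. Aldoc, which is scarce, lies furthest to the upper right, at 1.19 in NR hearts and 2.34 in vehicle hearts. Slc16a3, Pfkp and Ugp2 also lie at the upper right, and Pfkfb1 and Fbp2 at the lower left. Txnip and Pfkfb3 lie off the line, at 0.56 and 0.45 in NR hearts against -0.01 and -0.18 in vehicle hearts.

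A further 92 genes of these pathways, in 5 lists, were chosen by function. For TAC in NR hearts 87 of them were measured, of which 1 fell and 1 rose (2.3% called, against 0.549% of all genes). The authors' DESeq tests called 0 of 90 measured for TAC in vehicle hearts (0.0487% of all genes), 0 of 91 for NR in TAC hearts and 0 of 86 for NR in SHAM hearts (0% of all genes in each). The gene that fell was Slc16a7, the lactate and pyruvate carrier MCT2, with means of 351 in NR TAC and 555 in NR SHAM hearts in the authors' deposited table (log2 fold change -0.66, DESeq adjusted p 0.0277). For TAC in vehicle hearts its means were 255 in Vehicle TAC and 424 in Vehicle SHAM hearts in the authors' deposited table (log2 fold change -0.73, DESeq p 0.000474, adjusted p 0.261). NR means lay above vehicle means for Slc16a7 in TAC hearts (log2 fold change 0.53, DESeq p 0.011, adjusted p 1) and in SHAM hearts (0.46, DESeq p 0.0143, adjusted p 1) in the authors' deposited tables. The gene that rose was Myc, a transcription factor that drives many glycolytic genes, with 191 in NR TAC and 82.7 in NR SHAM hearts in the authors' deposited table (log2 fold change 1.20, DESeq adjusted p 0.000146). In vehicle hearts Myc stood at 0.61 in the authors' deposited table (DESeq p 0.077), and for NR in SHAM hearts the means were 80.0 in NR SHAM and 130 in Vehicle SHAM hearts (log2 fold change -0.70, DESeq p 0.00394, adjusted p 1).

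Among the other genes listed for glycogen metabolism, the gene under the symbol Pgm1 stood at 0.70 for TAC in NR hearts (DESeq p 0.00031, adjusted p 0.0539). Ppp1r3d, another glycogen-targeting subunit of protein phosphatase 1, stood at -0.55 for TAC in vehicle hearts (DESeq p 0.00301, adjusted p 0.522). Both values are from the authors' deposited tables. The symbol Pgm1 here is that of a gene at chr5:64092950-64128351, and which phosphoglucomutase enzyme it encodes was not checked. The gene listed as Pgm1 was scarce, at 246 in NR TAC and 152 in NR SHAM hearts on the common scale. The far more abundant gene listed as Pgm2 did not rise, at 6556 in NR TAC and 7605 in NR SHAM hearts. Mef2a, a transcription factor of muscle genes that include GLUT4, had the smallest p of the regulators for TAC in vehicle hearts, at -0.39 (DESeq p 0.0205, adjusted p 0.908), beside -0.33 for TAC in NR hearts in the authors' deposited tables. Of 23 regulators the median log2 fold change was -0.07 for TAC in NR hearts and -0.03 for TAC in vehicle hearts.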

How the data were processed

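The data are RNA sequencing of 16 mouse heart libraries. The submitters' processing notes name TopHat, HTSeq, DESeq and the GRCm38 build; versions, and the treatment of strand and of reads with several matches, are not given in the sources used here. The authors deposited 4 tables, 1 per pair of groups. Each holds 2 signal columns, which per the file headers and the values are the authors' means of size-factor-scaled counts in the pair. The deposited fold was recomputed as one mean plus 1 over the other plus 1, and the deposited log2 value is the logarithm of that fold. The deposited p-value comes from the authors' DESeq test, and the deposited adjusted p was recomputed by Benjamini-Hochberg over the whole table. These folds understate changes of low genes. The tables hold no value per library, so no SD, n or counting interval is given for a mean, and the depth per library is unknown.

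A gene was called at an adjusted p below 0.05. Groups were put on a common scale with the Vehicle TAC table as base, the NR TAC means being multiplied by 0.983 and a further step of 1.09 joining the NR SHAM means through Vehicle SHAM; the way round through the fourth table was off by 0.334%. Approximate standard errors were obtained by dividing each log2 value by the normal deviate that its p corresponds to, and are unreliable where p is near 1. The 2 TAC effects were compared by a two-sided z, their difference over its combined standard error, which was tested on simulated data first. The simulated p-values came from the same normal formula that the errors invert, so this does not check errors drawn from DESeq p-values. In the real data 0.842% of all genes had an unadjusted p below 0.05 by this z. That is less than the threshold alone would give, so the z may miss differences. Levels and isoform shares used the exon length of the longest coding transcript in GENCODE M21, and the isoform shown per step was picked after its values were seen. Sequences come from GENCODE M21 and RefSeq (GRCm38.p6). Python 3.11.15, pandas 2.3.3, SciPy 1.17.1 and matplotlib 3.10.9 were used.

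Every member is named or counted; members with an unadjusted p below 0.05 are given in full, and of the other pathway lists the called genes and the smallest p per list in a TAC comparison, where these are of interest to the members. Of these, 1 result is left out here. The members and lists were chosen with earlier results of these data known. Alternatives changed the threshold, the minimum mean, the pseudocount, the scaling, the length and the route of the difference test.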

Additional observations from a re-analysis of the deposited data

How the results depend on the processing

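The calls rest on the authors' adjustment over all genes. With a threshold of 0.1, 1 member was called, Pfkp for TAC in NR hearts. With p adjusted again over genes with a mean of at least 10 or of at least 50, again 1 member, Pfkp, was called in that comparison, with an adjusted p of 0.0426 and 0.0368. The other 15 counts of called members under an alternative stayed at 0, including the difference test by way of the NR tables. The 144 recomputed log2 fold changes and 16 medians kept their sign or moved by less than 0.1, under pseudocounts of 0 and 10 and under centring on the median of the better-measured genes. The Pfkp share, which differed by 3.78 percentage points for TAC in vehicle hearts and 2.04 for TAC in NR hearts, differed by 5.04 in vehicle hearts with coding length, and by 1.51 and 0.796 with the union of all annotated exons, an alternative added after the data were seen. The Pfkfb1 share differed by -11.9 in place of -14.4 points in vehicle hearts and by -15.7 in place of -17.7 points in NR hearts with coding length. The other 43 recomputed TAC minus SHAM differences of a share moved by less than 1 point. The shares themselves moved more: that of Hk1 in NR TAC hearts was 55.6% by exon length, 48.6% by coding length and 40.5% by all annotated exons. No paired analysis was possible because the tables hold group means only, and for the same reason leaving out single libraries and DESeq2 were not run. How far a single library decides a mean could not be seen.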
